A study of Mus musculus with 6 samples.

Results

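Ribosomal protein genes encode the structural proteins of the cytosolic ribosome. They were taken here as all gene symbols that begin with Rpl or Rps and go on with a number and at most 1 letter out of a, x, y and l, together with Rplp0, Rplp1, Rplp2 and Rpsa. The rule matched 82 of the 35976 genes in the files. Of these, 80 had more than 10 expected counts in at least 2 of the 6 libraries, and they are the members described, out of 17348 genes tested. The members hold 48 genes named for the large subunit and 32 named for the small subunit. Rpl3l and Rpl10l were matched by symbol and fell below the count threshold. Of the 80 members, 4 (Rpl32l, Rpl39l, Rps4l and Rps27l) are like-named copies of a standard ribosomal protein gene, and the other 76 are the standard genes. The rule uses symbols and the count threshold and no measured change, and it was set with earlier results of these data known.

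The libraries were made from satellite cells (SCs), the stem cells of adult skeletal muscle, of 3 NF-YA fl/fl and 3 NF-YA cKO mice. Both groups carried floxed alleles of NF-YA, which gives the trimeric transcription factor NF-Y its sequence specificity, and both received tamoxifen (20 mg/ml, mice of 5 to 7 weeks per the labels). In NF-YA cKO mice the Cre recombinase is driven from Pax7 as CreERT2, so that only Pax7-expressing cells can delete the allele, while NF-YA fl/fl mice served as controls without Cre. The cells were isolated from hindlimb muscle by depleting cells that bear CD31, CD45, CD11b or Sca1 with antibodies, and they were cultured in growth medium before RNA extraction, so each library is a cell population and not a sorted pure cell type. RNA-seq was performed on total RNA, and the deposited values are RSEM expected counts and TPM (a level per transcript length, scaled to 1 sum in every library).

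The ribosome is built from 2 subunits. The small subunit reads the mRNA, and the large subunit joins the amino acids and carries the P stalk, through which translation factors are recruited. Ribosomal proteins are made in near-equal numbers, are among the most abundant mRNAs of growing cells, and share a pyrimidine-rich 5′ end, the terminal oligopyrimidine or TOP motif, by which mTOR signalling controls their translation. In muscle, Rpl3l is known as a paralog that takes the place of Rpl3 in mature fibres. SCs are small and quiescent in resting muscle and build up their translation machinery when they are activated.

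Library depth was between 26936230 and 41118984 expected counts. The deleted Nfya allele, for which the authors had added a transcript of 2883 nt, was absent from all 3 NF-YA fl/fl libraries (0%) and held 22.3%, 26.4% and 34.2% of the gene's expected counts in NF-YA cKO. All 34 genes of a terminal muscle list were called lower in NF-YA cKO, and their summed level was 755 to 1650 CPM (counts relative to library size after TMM scaling) against 54600 to 68400 CPM in NF-YA fl/fl. Of 8 macrophage genes tested out of 10 listed, 7 were called higher in NF-YA cKO (summed level 141 to 276 CPM against 5.77 to 15.4 CPM), and no gene on either list was at 0 in every library. The satellite cell and myoblast list had 3 of 10 genes called lower (1710 to 1860 CPM against 2400 to 4040 CPM), while Pax7, which defines satellite cells, had a log2 fold change of 0.94 (SE 0.17, FDR 0.00624, edgeR). Of the pericyte and smooth muscle list 1 of 4 genes was called lower (786 to 926 CPM against 1640 to 1970 CPM), and of the Schwann list 3 of 4 were called higher (15 to 20.2 CPM against 6.18 to 8.67 CPM). The fibro-adipogenic list had 1 of 7 genes called higher (1950 to 2350 CPM against 1070 to 2890 CPM, with the lowest level in NF-YA fl/fl replicate 3). The endothelial list had 1 of 5 called higher (13.1 to 18.0 CPM against 4.14 to 8.06 CPM). In such bulk samples fewer cells of a type and less RNA per cell cannot be told apart, and the part that these differences in cell content had in the results on ribosomal protein genes was not tested. Xist, the RNA of the inactive X chromosome, had 0.306 to 0.475 CPM in NF-YA fl/fl but 836 to 852 CPM in NF-YA cKO, and the Y-linked Ddx3y was at 80.9 to 88.6 CPM in the first and 0.047 to 0.0957 CPM in the second, so that sex and genotype cannot be told apart. NF-YA fl/fl replicate 3 stood apart from the other libraries: the difference between length and effective length, which follows the mean fragment length, was 159.9 nt in it, 176.5 and 176.8 nt in the other NF-YA fl/fl libraries and 167.2 to 175.2 nt in NF-YA cKO. Protein-coding rows held 38.8% of its TPM, against 45.5% to 54.0% in the other 5 libraries.

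NF-Y binds the letters CCAAT, or ATTGG when read on the other strand, and promoters of the members were therefore searched for them, in the 250 bases before and 50 bases after each annotated gene start (RefSeq, GRCm38.p6). Of the 82 symbols 61 were in the promoter table, and of the 76 standard genes 56. The letters were found for 18 of these 56 genes (32.1%), against 41.1% of all genes in the table and 42.3% of the tested genes in it. The sequences below are those of 4 members whose levels by genotype are given further down. Rpl23, Rps15a and Rps24, which are named further down for copies or transcripts, hold the letters too and are not printed. Each is printed in the direction of the gene, 5′ to 3′, with the CCAAT or ATTGG in capitals, and the distance in the next sentences runs from the annotated start to the first capital.
Rplp0, chr5:115559370-115559394, plus strand: gcggtctcagCCAATagacgcgcat
Rplp0, chr5:115559421-115559445, plus strand: atggaaccagCCAATaggcatggac
Rpl10, chrX:74270584-74270608, plus strand: ggctctccgcCCAATatggccaggc
Rpl10, chrX:74270674-74270698, plus strand: tatccagtcaCCAATaagctctgtg
Rps4x, chrX:102189554-102189578, minus strand: atctggtgcgATTGGtctgggtatc
Rps27l, chr9:66945978-66946002, plus strand: aatgtccctcATTGGacttggcccg
In Rplp0, which encodes the core protein of the P stalk, the letters stood at -87 and -36. In Rpl10 they stood at -222 and -132, in Rps4x at -177 and in Rps27l at -98. The 18 standard genes with the letters had a median log2 fold change (NF-YA cKO over NF-YA fl/fl) of 0.52, and the 38 without them had one of 0.52. A match gives only the letters and says nothing of binding in these cells.

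The TOP motif was looked for as a C at the annotated start followed by at least 4 pyrimidines. It was found for 13 of the 56 standard genes (23.2%), against 3.01% of all genes in the table and 3.11% of the tested genes in it. Annotated starts are not always the base at which transcription begins, so a gene without a match may still have the motif. The starts of 3 members that are described below by name show what the motif looks like, with the pyrimidine run in capitals and its first capital at the annotated start.
Rplp2, chr7:141447641-141447665, plus strand: cagcgtcttcCTTTCgccgccggac
Rps27, chr3:90213634-90213658, minus strand: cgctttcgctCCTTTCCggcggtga
Rps6, chr4:86857353-86857377, minus strand: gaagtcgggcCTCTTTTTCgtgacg
The 13 genes with the match had a median log2 fold change of 0.48 and the 43 without it one of 0.52, while 374 other tested genes with the match had a median of -0.05. Members with and without the motif at the annotated start therefore had close medians, and genes outside the family that hold it were centred near 0; these differences were not tested.

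Genotypes were then compared gene by gene. Ribosomal protein genes were higher in NF-YA cKO almost without exception, and by a small factor: 79 of the 80 members had a positive log2 fold change, against 49.0% of all tested genes. The median was 0.51 (quartiles 0.39 and 0.60), against -0.02 (quartiles -0.57 and 0.42) over all tested genes. None of the 80 passed the thresholds of the study, an FDR under 0.01 with a log2 fold change above 1 or below -1, by edgeR, DESeq2 or limma. These thresholds called 4.65% of all tested genes higher and 7.67% lower. At an FDR under 0.05 with edgeR's quasi-likelihood test, 44 of 80 members rose and 0 fell, while 19.7% of all tested genes rose and 18.9% fell. At an unadjusted p under 0.05, 59 members were higher and 0 were lower, against 24.6% and 24.1% of all tested genes, and DESeq2 and limma also found 0 lower members at the same FDR. For 65 of 80 members the lowest NF-YA cKO library exceeded the highest of NF-YA fl/fl, as for 29.1% of all tested genes, and 0 members showed the opposite order, which 26.2% of all tested genes did.

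**Figure D1:**
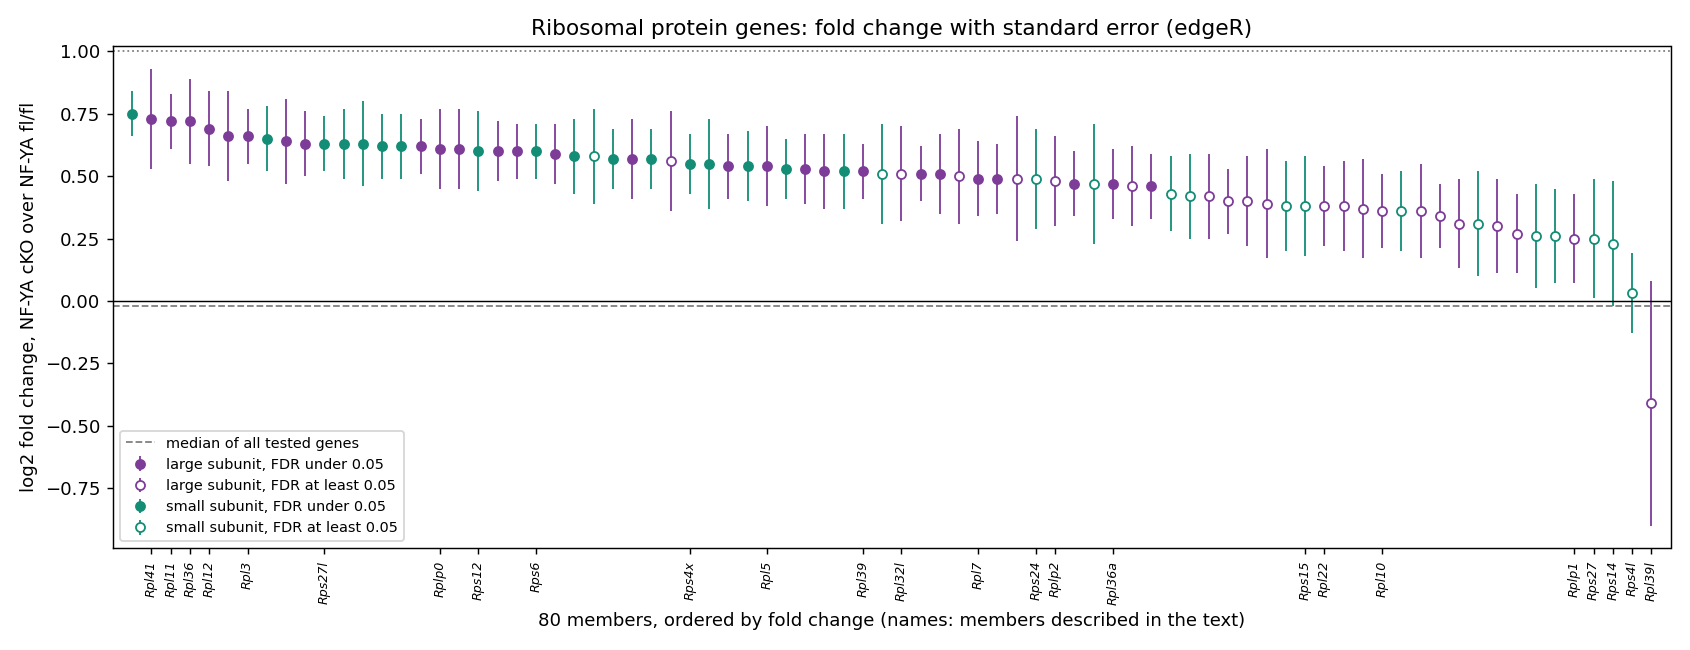
Log2 fold change of each of the 80 members (vertical axis, NF-YA cKO over NF-YA fl/fl), ordered by size. Bars show the standard error computed from the fold change and F statistic of edgeR. Filled points mark an FDR under 0.05, with the dashed line at the median of all tested genes (-0.02) and the dotted line at 1. Names mark members described in the text. All members but Rpl39l lie above 0 and all lie below 1, and both subunits are spread over the whole order.

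The number of members past the threshold depended on single libraries. Without NF-YA cKO replicate 1, 2 or 3 it was 18, 8 or 19, without NF-YA fl/fl replicate 1 it was 22, without NF-YA fl/fl replicate 2 it was 42, and without NF-YA fl/fl replicate 3 it was 78. The direction did not depend on them in the same way, since 78 to 80 members stayed above 0 in each of these fits and the median log2 fold change was between 0.37 and 0.65. Rpl5, Rpl7, Rplp0 and Rps12 lost their calls without any 1 of the 3 NF-YA cKO libraries and without NF-YA fl/fl replicate 1, Rps4x without NF-YA cKO replicate 1 or 2, Rpl39 without NF-YA cKO replicate 2, and Rpl36a without any 1 library other than NF-YA fl/fl replicate 3. The share of all tested genes that rose at the same threshold moved too. It was 11.1%, 9.87% and 11.6% without NF-YA cKO replicate 1, 2 or 3, and 14.6%, 20.8% and 25.9% without NF-YA fl/fl replicate 1, 2 or 3. Without NF-YA cKO replicate 2 the 8 of 80 members past the threshold were thus a share near that of all tested genes.

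Both subunits were shifted. Among the standard genes, all 46 of the large subunit had a positive log2 fold change, with a median of 0.50 and a range from 0.25 to 0.73. All 30 of the small subunit were positive too, with a median of 0.53 and a range from 0.23 to 0.75. Of these, 27 of 46 and 16 of 30 passed the FDR of 0.05, against 19.7% of all tested genes. Without NF-YA cKO replicate 2 these counts were 4 and 3, near the 9.87% of all tested genes in that fit, and they were all 46 and all 30 without NF-YA fl/fl replicate 3 (25.9% of all tested genes).

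Rpl41, a very short peptide and the member with the highest mean TPM, had one of the larger changes. It was at 814, 959 and 874 CPM in the 3 NF-YA cKO libraries and at 545, 384 and 663 CPM in the NF-YA fl/fl controls. The NF-YA fl/fl libraries spread widely but stayed below all NF-YA cKO libraries, and the log2 fold change was 0.73 (SE 0.20, FDR 0.0269, edgeR). Rpl36, of the large subunit, and Rpl12, at the base of the P stalk, followed with 0.72 (SE 0.17, FDR 0.0163) and 0.69 (SE 0.15, FDR 0.0125). For Rpl36 the levels were 229, 265 and 246 CPM against 149, 116 and 184 CPM, and for Rpl12 they were 989, 1148 and 1013 CPM against 664, 533 and 758 CPM. In both genes NF-YA fl/fl replicate 2 was the lowest library and replicate 3 the highest of its group, without overlap between genotypes. Rpl11, described next, passed an FDR of 0.05 in all 17 alternative fits that test against no change (glmTreat, which tests against a log2 fold change of 1, called 0 members and is not among the 17), while Rpl12 lost it without NF-YA cKO replicate 2 (largest FDR 0.0666), Rpl36 in 3 of 17 (0.0745) and Rpl41 in 4 of 17 (0.108), each time when 1 library was left out.

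Rpl5 and Rpl11 form a particle with the 5S rRNA that enters the large subunit and, when ribosome assembly is disturbed, binds Mdm2 and thereby stabilizes p53. Rpl11 was at 536, 580 and 556 CPM in NF-YA cKO and at 342, 298 and 374 CPM in the NF-YA fl/fl controls. It was higher in every NF-YA cKO library, and rose by 0.72 (SE 0.11, FDR 0.00349, edgeR) on the log2 scale. Rpl5 was at 1202, 1253 and 1168 CPM against 851, 654 and 979 CPM. The groups were again apart, with a log2 fold change of 0.54 (SE 0.16, FDR 0.0333), which was past the threshold in 12 of 17 alternatives; the largest FDR among them was 0.13.

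Of the 3 genes of the P stalk, 1 passed the FDR of 0.05, and 19.7% of all tested genes rose at it. A count out of 3 genes is too small to be set apart from that share. Rplp0 was at 1923, 2104 and 1865 CPM in NF-YA cKO and at 1240, 1069 and 1547 CPM in the NF-YA fl/fl controls, and rose by 0.61 (SE 0.16, FDR 0.022, edgeR) on the log2 scale, a call kept in 12 of 17 alternatives (largest FDR 0.102). Rplp2 was at 391, 430 and 414 CPM against 279, 232 and 375 CPM. Its groups did not overlap, yet the log2 fold change of 0.48 (SE 0.18, FDR 0.0701) missed the threshold. Rplp1, the third of all members in mean TPM, was at 768, 809 and 750 CPM against 641, 495 and 815 CPM. Here NF-YA fl/fl replicate 3 was above all NF-YA cKO libraries, and the log2 fold change of 0.25 (SE 0.18, FDR 0.302) was not past the threshold. Without NF-YA fl/fl replicate 3 both passed it, Rplp2 also with library totals alone, with a smallest FDR over the alternatives of 0.00216 and 0.0213. Differences between the 3 genes were not tested.

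Rps12, a small subunit protein that ranked second in mean TPM, was at 3211, 3157 and 3177 TPM in NF-YA cKO and at 2426, 2129 and 2038 TPM in NF-YA fl/fl. Its log2 fold change in counts was 0.60 (SE 0.16, FDR 0.0269, edgeR), past the threshold in 10 of 17 alternatives. Of the 76 standard genes, 68 had a mean of at least 500 TPM over the 6 libraries. Rps6, the substrate of the S6 kinases in the mTOR pathway, was far below them, at 52.4, 47.2 and 51.3 TPM in NF-YA cKO and 35.0, 38.2 and 32.1 TPM in NF-YA fl/fl. It is named because of that level, after its values were seen, and why the files list it so low was not tested. Its log2 fold change of 0.60 (SE 0.11, FDR 0.00567) was close to that of Rps12.

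Rps15 encodes a small subunit protein and served as the reference gene of the RT-qPCR in the study. It was at 408, 440 and 414 CPM in NF-YA cKO and at 305, 244 and 423 CPM in the NF-YA fl/fl controls. NF-YA fl/fl replicate 3 lay within the NF-YA cKO range while the other libraries of its group were below it. The log2 fold change was 0.38 (SE 0.20, FDR 0.17, edgeR), and it lay between 0.21 and 0.61 over the alternatives, with the threshold passed only without NF-YA fl/fl replicate 3 (FDR 0.00442). In TPM over all rows, Rps15 was at 1331, 1217 and 1279 in NF-YA cKO and at 986, 961 and 1090 in NF-YA fl/fl, without overlap. Protein-coding rows held 38.8% of the TPM of NF-YA fl/fl replicate 3, against 47.7% to 54.0% in NF-YA cKO. Rps15 was not compared in TPM over protein-coding rows, so this lack of overlap holds for the all-row scale only.

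Members on the X chromosome were examined on their own, because the groups differ in Xist. Rps4x, a small subunit protein, was at 1178, 1263 and 1144 CPM against 832, 730 and 891 CPM, and rose by 0.55 (SE 0.12, FDR 0.0104, edgeR) on the log2 scale. Rpl39, which lines the exit tunnel for the nascent chain, was at 354, 404 and 351 CPM against 259, 233 and 280 CPM, and rose by 0.52 (SE 0.11, FDR 0.0106). Rpl36a was at 260, 283 and 266 CPM against 187, 165 and 234 CPM, with a log2 fold change of 0.47 (SE 0.14, FDR 0.036) that was past the threshold in 9 of 17 alternatives. Rpl10, one of the last proteins to join the large subunit, was at 1060, 1143 and 1030 CPM against 864, 684 and 975 CPM, with a log2 fold change of 0.36 (SE 0.15, FDR 0.0975). None of the 4 genes overlapped between genotypes. The same order without overlap was seen for 59 of the 72 standard genes on other chromosomes and for 29.1% of all tested genes. The median log2 fold change of the 4 X-linked genes was 0.50, and that of the 72 standard genes on other chromosomes was 0.52.

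The weakest changes had a common feature in the libraries. Of the 76 standard genes, 13 overlapped between genotypes in CPM, and in all 13 the overlap came from NF-YA fl/fl replicate 3 alone. The smallest log2 fold changes among the standard genes were those of Rps14, at 0.23 (SE 0.25, FDR 0.497, edgeR), and Rps27, at 0.25 (SE 0.24, FDR 0.453). In CPM, Rps27 was at 341, 363 and 341 in NF-YA cKO and at 283, 196 and 403 in NF-YA fl/fl, so that the latter spanned the former.

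Most members had the same lowest and the same highest library in CPM. NF-YA fl/fl replicate 2 was the lowest of all 6 libraries in CPM for 78 of 80 members, NF-YA fl/fl replicate 3 was the highest of its group for 77, and NF-YA cKO replicate 2 was the highest of all 6 for 70. Relative to each gene's mean over the 6 libraries, the median log2 CPM of the 76 standard genes was 0.22, 0.34 and 0.23 in NF-YA cKO and -0.22, -0.56 and -0.01 in NF-YA fl/fl. The median coefficient of variation over the standard genes was 4.54% in NF-YA cKO and 19.9% in NF-YA fl/fl. In TPM the order within NF-YA fl/fl was different, with medians of -0.18, -0.22 and -0.26 beside 0.28, 0.16 and 0.22 in NF-YA cKO, and the coefficients of variation were 4.62% and 6.83%. In TPM the lowest NF-YA cKO library exceeded the highest of NF-YA fl/fl for 77 of 80 members, against 18.8% of all tested genes. The genotypes were thus apart for most members in CPM and in TPM over all rows. The spread within NF-YA fl/fl was wider in counts than in TPM over all rows. Protein-coding rows held 38.8% of the TPM of NF-YA fl/fl replicate 3, against 47.7% to 54.0% in NF-YA cKO. The members were not compared gene by gene in TPM over protein-coding rows.

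**Figure D2:**
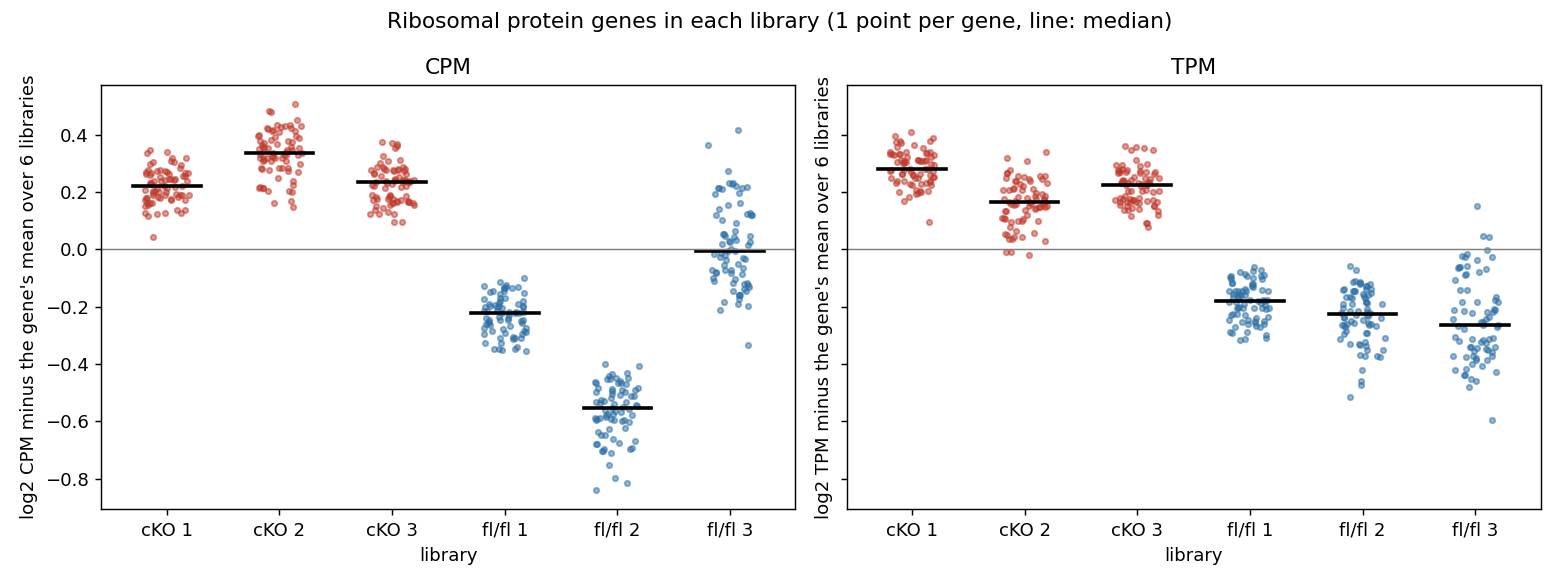
Log2 CPM (left) and log2 TPM over all rows (right) of the 76 standard ribosomal protein genes in each library, minus each gene's mean over the 6 libraries (1 point per gene, black line: median). The NF-YA cKO medians lie above 0 on both scales (0.16 to 0.34), and NF-YA fl/fl replicates 2 and 3 lie apart in CPM (medians -0.56 and -0.01) and close together in TPM (-0.22 and -0.26).

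The share of each library taken by the 80 members together was then computed. It was 5.29%, 5.69% and 5.40% of the expected counts in NF-YA cKO (5.46% ± 0.204, SD, n = 3) and 3.69%, 3.06% and 4.34% in NF-YA fl/fl (3.70% ± 0.643, SD, n = 3). The counting error was negligible beside this spread, with a 95% Wilson interval from 3.05% to 3.06% in NF-YA fl/fl replicate 2. The ratio of the means was 1.48 without overlap between genotypes, and the exact permutation test gave p = 0.1 (two-sided), the smallest that 3 against 3 libraries allow. As a share of TPM, the members took 10.9%, 10% and 10.4% in NF-YA cKO against 7.89%, 7.58% and 7.54% in NF-YA fl/fl, a ratio of 1.36 with the same exact permutation p of 0.1. Leaving the terminal muscle genes out of the denominator changed the ratio in counts to 1.39. When only protein-coding rows were kept, a denominator chosen after the data were seen, the ratio in counts was 1.44, and that in TPM fell to 1.19, with 20.2%, 21.1% and 20.2% against 17.3%, 14.7% and 19.4%. The genotypes were apart in each of these, and the size of the difference in TPM depended on whether non-coding rows were in the denominator. So did the spread of NF-YA fl/fl in TPM, with an SD of 0.193 points over all rows and 2.39 points over protein-coding rows, beside 0.437 and 0.493 points in NF-YA cKO.

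**Figure D3:**
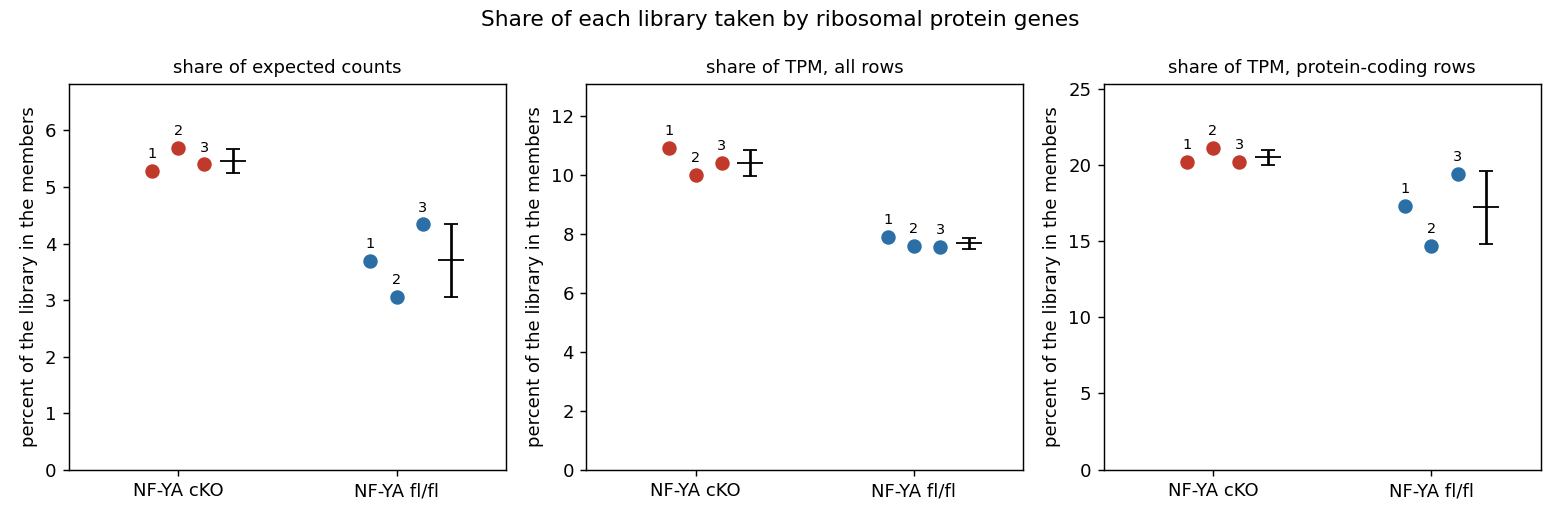
Percent of each library in the 80 members, as a share of expected counts (left), of TPM over all rows (middle) and of TPM over protein-coding rows (right); numbers are replicates, bars show mean ± SD over 3 libraries and axes start at 0. The NF-YA cKO points lie above all NF-YA fl/fl points in each panel, by a ratio of means of 1.48, 1.36 and 1.19.

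Rpl3 and its muscle paralog Rpl3l were set side by side. Rpl3 (chr15:80077791-80091868) encodes a large subunit protein near the peptidyl transferase centre, and Rpl3l (chr17:24727820-24736143) shares 73.2% of 1224 aligned coding positions with it in these annotations. Rpl3 was at 1507, 1564 and 1449 CPM in NF-YA cKO and at 935, 866 and 1052 CPM in the NF-YA fl/fl controls. The groups were apart, and Rpl3 rose by 0.66 (SE 0.11, FDR 0.00508, edgeR) on the log2 scale in the main comparison and passed the threshold in all 17 alternatives (0.59 to 0.74). Rpl3l had 2.86, 2.01 and 3.94 expected counts in NF-YA cKO and 3, 2.01 and 5.13 in NF-YA fl/fl, which is at or near the floor of 3 counts, and no fold change is given. In TPM it was at 0.06, 0.03 and 0.09 against 0.09, 0.05 and 0.09, beside 1433, 1266 and 1326 TPM of Rpl3 in NF-YA cKO and 878, 992 and 816 in NF-YA fl/fl. Its share of the sum of both genes was 0.00445% ± 0.00222 in NF-YA cKO and 0.00877% ± 0.00326 in NF-YA fl/fl (SD, n = 3, exact permutation test, two-sided, p = 0.2, adjusted p = 0.48 over 8 pairs, where 3 against 3 libraries cannot give less than 0.1). In neither genotype was Rpl3l more than a trace, although the terminal muscle genes differed so widely between them. In contrast, Rpl3 was in the upper part of the members' range of log2 fold change.

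Other copies related to a member differed in level from pair to pair. Rps27l, a target of p53 that shares 76.1% of coding positions with Rps27, was at 113, 125 and 109 CPM in NF-YA cKO and at 79.4, 66.6 and 78.1 CPM in the NF-YA fl/fl controls. It rose by 0.63 (SE 0.11, FDR 0.00488, edgeR) on the log2 scale, kept this in all 17 alternatives, and made up 14.3% ± 0.359 of the TPM of the pair in NF-YA cKO and 11.9% ± 2.69 in NF-YA fl/fl (exact permutation p = 0.3, adjusted p = 0.48). In TPM, Rpl22l1 was the larger part of its pair with Rpl22, an RNA-binding protein of the large subunit, with 79.4% ± 0.791 against 77.9% ± 1.98 (exact permutation p = 0.4, adjusted p = 0.533). In expected counts, which are not scaled to length, Rpl22l1 was the smaller part, with 39.1% ± 0.921 against 37.2% ± 2.47. The mean effective length was 340.1 nt for Rpl22l1 and 2032.5 nt for Rpl22. Rpl22 had a log2 fold change of 0.38 (SE 0.16, FDR 0.0949) and Rpl22l1 one of 0.50 (SE 0.16, FDR 0.0412). Rpl36al took 35.0% ± 0.870 against 33.9% ± 0.950 of its pair with Rpl36a, and Rpl7l1 took 3.59% ± 0.0806 against 3.49% ± 0.417 of its pair with Rpl7 (exact permutation p = 0.3 and 0.8). Both rose, Rpl36al by 0.54 (FDR 0.0147) and Rpl7l1 by 0.55 (FDR 0.00411), beside 0.49 (FDR 0.0411) for Rpl7. Rpl7l1 kept the call in all 17 alternatives, Rpl36al in 15 (not without NF-YA cKO replicate 1 or 2), Rpl22l1 in 12 and Rpl7 in 10 (neither without any 1 NF-YA cKO library or NF-YA fl/fl replicate 1).

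The remaining copies were low. Rps4l, a copy of Rps4x without introns, was at 11.5, 10.9 and 10.5 CPM in NF-YA cKO and at 11.3, 12.2 and 8.75 CPM in the NF-YA fl/fl controls, with a log2 fold change of 0.03 (SE 0.16, FDR 0.898, edgeR) whose sign changed between alternatives. It made up 0.913% ± 0.0648 against 1.31% ± 0.344 of the TPM of its pair (exact permutation p = 0.2, adjusted p = 0.48). Rpl39l, the member closest to the count threshold, had 16, 33 and 35 expected counts against 41, 30 and 12, and was the only member with a negative log2 fold change, -0.41 (SE 0.49, FDR 0.542). Its groups overlapped fully, and without NF-YA fl/fl replicate 1 its value was 0.13. It made up 0.0875% ± 0.0225 against 0.157% ± 0.0906 of its pair with Rpl39 (exact permutation p = 0.3). Rpl10l, known from male germ cells, had 0 counts in every library, where 3 counts correspond to 0.073 to 0.111 CPM. Rpl32l, which the annotation lists as a processed pseudogene, was at 24.6, 27.4 and 27 CPM against 19.1, 13.6 and 23.0 CPM, with a log2 fold change of 0.51 (SE 0.19, FDR 0.0763). Over all 8 pairs, no share of a pair differed at an adjusted p below 0.48.

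**Figure D4:**
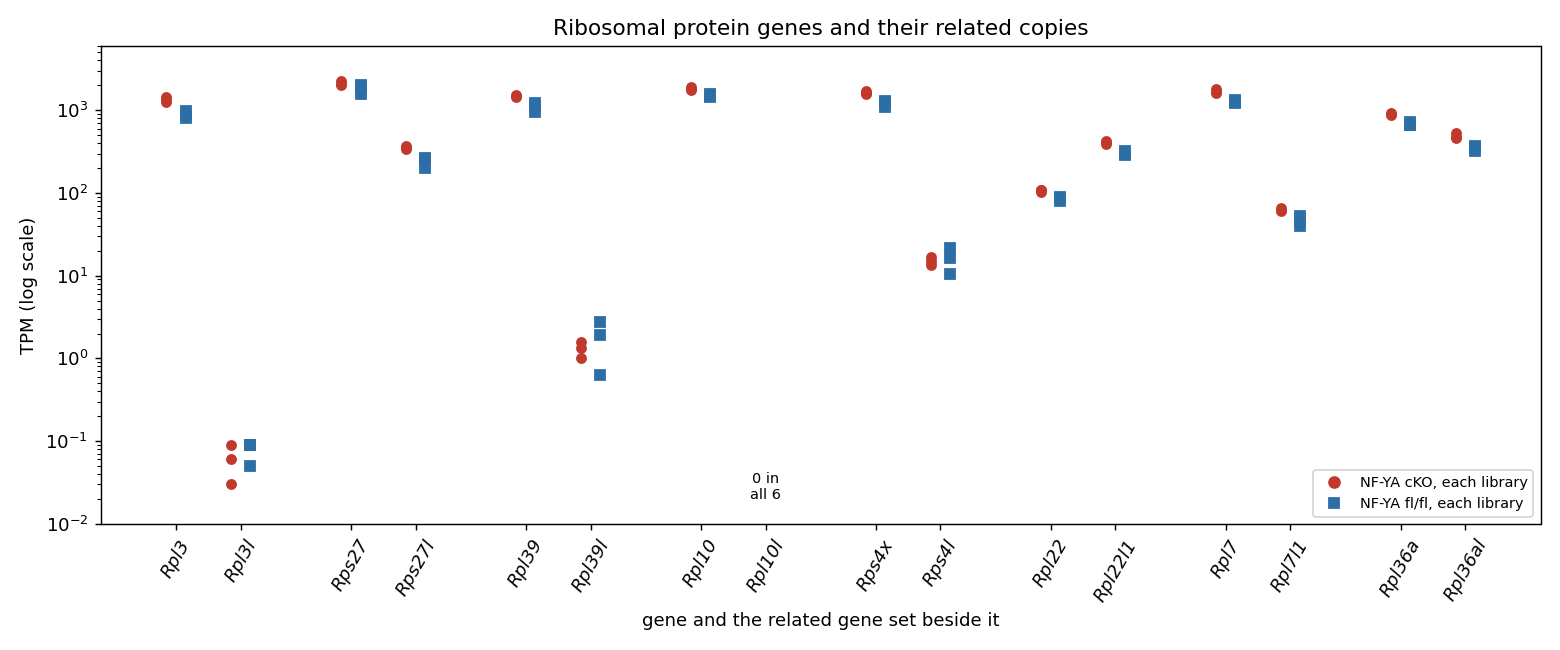
TPM on a log scale of each gene and the related copy set beside it, in each NF-YA cKO library (circles) and each NF-YA fl/fl library (squares). The copies range from 0 (Rpl10l) and under 0.1 TPM (Rpl3l) to levels near those of standard genes (Rpl22l1, Rpl36al, Rps27l), with the genotypes close together beside these gaps.

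Ribosomal protein genes have many processed copies in the genome, and RSEM splits reads between a gene and a near-identical copy. Copies were looked for at a coding identity of at least 90% over at least 50% of the coding length. Only those with a symbol of Gm and a number, or with -ps, were counted, so like-named copies such as Rpl32l were left out. The largest of those counted was Gm9794, with 23.6% of the count of Rpl23, followed by Gm8430 with 10.1% of Rps27a, Gm6988 with 6.04% of Rps25 and Rps15a-ps5 with 4.45% of Rps15a. The levels of these 4 members are estimates of such a split. With the counts of these copies added to their members, 43 members passed the FDR of 0.05, while 19.7% of all tested genes rose. The median log2 fold change of the members stayed at 0.51.

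Transcript shares within a gene were compared for the 11 members with at least 2 transcripts at a mean of at least 10% of TPM in either genotype, 24 transcripts in all. For 8 of the 24 the genotypes did not overlap, and the smallest adjusted p of the exact permutation tests was 0.3. Shares of transcripts of the same gene depend on each other, so these 8 are not separate results. The same count over all transcripts in the files is not given here, so the 8 cannot be set against it. Only Rpl39l differed by at least 10 percentage points without overlap: its transcript NM_026594.2 took 77.0%, 75.9% and 70.9% in NF-YA cKO and 100%, 100% and 82.3% in NF-YA fl/fl, a difference of -19.5 points that rests on means of 22.8 and 27.2 counts. Rps24, which has 9 annotated transcripts and is named here after its values were seen, was split differently in 1 library. Its transcript NM_011297.2 took 60% of the TPM in NF-YA fl/fl replicate 3, 27.3% and 26.8% in the other NF-YA fl/fl libraries, and 40.7%, 46.8% and 50.6% in NF-YA cKO, while NM_207634.1 took 6.83% in NF-YA fl/fl replicate 3 and 20.1% to 27.5% in the other 5 libraries. The genotypes therefore overlapped in both. They did not overlap in NM_207635.1, with 5.55%, 8.32% and 7.02% in NF-YA cKO and 11.8%, 10.8% and 16.2% in NF-YA fl/fl, a difference of -5.98 points (exact permutation p = 0.1, adjusted p = 0.3).

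Some ribosomal protein genes have symbols that the rule does not match, and those described here had log2 fold changes of the same sign. Rps3a1, of the small subunit, was at 1043, 1125 and 1008 CPM against 731, 629 and 798 CPM and rose by 0.56 (SE 0.12, FDR 0.0122, edgeR) on the log2 scale. It lost the threshold in 4 of 17 alternatives, among them those without NF-YA cKO replicate 1 or 2. Rack1, a signalling scaffold on the small subunit, rose by 0.43 (SE 0.14, FDR 0.0442), a call that was lost in 11 of 17 alternatives, among them each fit that left out 1 library other than NF-YA fl/fl replicate 3. Fau, which encodes a ribosomal protein fused to a ubiquitin-like protein, had a log2 fold change of 0.48 (SE 0.27, FDR 0.194). It was at 356, 384 and 352 CPM against 254, 164 and 365 CPM, so that NF-YA fl/fl replicate 3 overlapped NF-YA cKO once more.

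Genes that make or use ribosomes were described next, without a test of the lists. Of 93 genes of ribosome biogenesis, 76 rose and 0 fell at an FDR under 0.05 (81 higher at an unadjusted p under 0.05), beside 19.7% and 24.6% of all tested genes that were higher at these thresholds, with a median log2 fold change of 0.67, and 10 passed the thresholds of the study. Npm1, a nucleolar chaperone of pre-ribosomes, had a mean of 1557 CPM in NF-YA cKO against 612 CPM in controls (log2 fold change 1.35, SE 0.14, FDR 0.000835, edgeR). Nhp2 and Dkc1, of the complex that makes pseudouridine in rRNA, rose by 1.30 (SE 0.08, FDR 0.000147) and 1.22 (SE 0.09, FDR 0.000337), and Nop56, of the complex that methylates rRNA, rose by 1.14 (SE 0.09, FDR 0.000369). Dkc1 is X-linked. Between 53 and 86 of the 93 genes rose when 1 library was left out, beside 9.87% to 25.9% of all tested genes. These 4 genes are those with the largest log2 fold change on the list, and were named after their values were seen.

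Mitochondrial ribosomal proteins build the separate ribosome of mitochondria from nuclear genes. Of 76 such genes 44 rose and 0 fell, with 76 of 76 above 0, a median log2 fold change of 0.45 and a range from 0.02 to 0.95. The number that rose was 19, 12 and 16 without NF-YA cKO replicates 1, 2 and 3, and 69 without NF-YA fl/fl replicate 3. In the same fits 11.1%, 9.87%, 11.6% and 25.9% of all tested genes rose, beside 19.7% with all libraries. Of 33 tested translation factors and other TOP mRNAs, 19 rose and 0 fell, with a median of 0.47, and this number was 9, 8 and 10 without NF-YA cKO replicates 1, 2 and 3 and 12 without NF-YA fl/fl replicate 1 (14.6% of all tested genes). Eef1a1, the factor that delivers aminoacyl-tRNA, was at 10480, 11080 and 10420 CPM against 8117, 6947 and 8425 CPM and rose by 0.45 (SE 0.14, FDR 0.0439, edgeR) on the log2 scale, with the call lost in 11 of 17 alternatives, the same ones as for Rack1. Its muscle and neuron form Eef1a2 was at 1.02, 0.555 and 1.01 CPM against 0.268, 0.684 and 0.373 CPM, with a log2 fold change of 0.93 (SE 0.44, FDR 0.135; 0.0476 without NF-YA fl/fl replicate 2). Of 12 genes of the list for growth signalling to ribosome synthesis, 3 rose and 3 fell, with a median of -0.21. Those that rose were Mycn, Mxi1 and Max, and those that fell were Mycl, Mxd1 and Mtor (log2 fold change -0.65, SE 0.10, FDR 0.00384), and Myc itself had 0.38 (SE 0.13, FDR 0.0538, past the threshold without NF-YA fl/fl replicate 1 or 3). Mycl and Mtor kept the threshold in all 17 alternatives, and Mxd1, Mxi1, Max and Mycn lost it in 3 to 6 of them, each of them without NF-YA cKO replicate 1 or 2. No direction was common to this list. Of 11 tested pseudogenes with a ribosomal protein symbol, 1 rose (Rpl13-ps6, lost in each fit that left out 1 library other than NF-YA fl/fl replicate 3) and 6 were above 0.

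**Figure D5:**
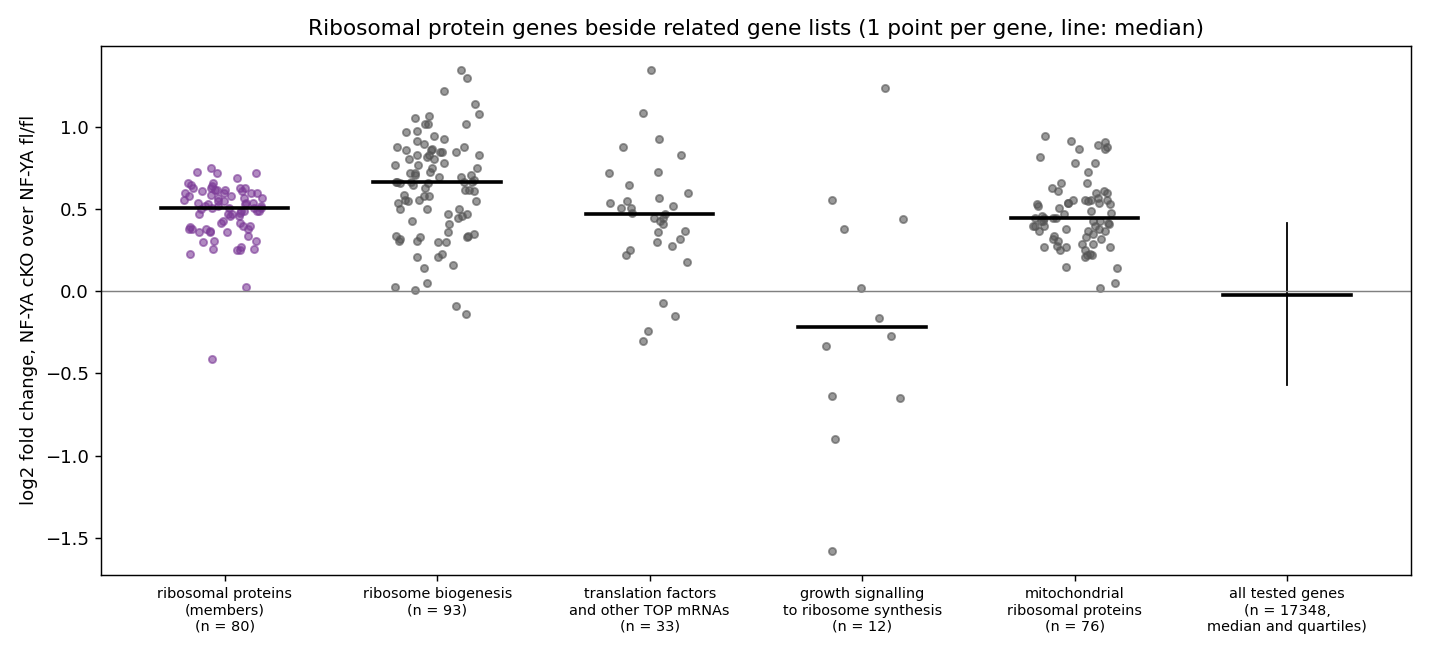
Log2 fold change of each gene (vertical axis, NF-YA cKO over NF-YA fl/fl, 1 point per gene, black line: median) for the 80 members and 4 related lists, with the median and quartiles of all 17348 tested genes. The members form a tight cloud around 0.51, between the biogenesis list (0.67) and the mitochondrial list (0.45), while the growth signalling list lies on both sides of 0.

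The members are short and abundant mRNAs, and other genes of that kind were shifted in the same direction. Among 277 other tested genes with an effective length under 1500 nt and a mean of at least 100 CPM, 210 had a positive log2 fold change and the median was 0.35, against 0.18 for all 3785 other genes of that length and 0.11 for all 1994 other genes of that level. At an FDR under 0.05, 126 of the 277 genes rose (45.5%) and 31 fell, beside 44 of the 80 members that rose (55.0%). For 154 of the 277 the lowest NF-YA cKO library exceeded the highest of NF-YA fl/fl, and 37 showed the opposite order. Without NF-YA cKO replicate 2, 72 of the 277 rose and 21 fell, beside 8 of the 80 members that rose. Over the fits that left out 1 library, the median of the 277 genes was between 0.28 and 0.41. The part that length and level had in the change of the members was not tested.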

How the data were processed

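RNA-seq of cultured SCs, with 3 libraries per genotype, was analyzed. The authors aligned reads with Bowtie2 and quantified them with RSEM (mm10; the version of Bowtie2 is not given in the sources used here). Expected counts were deposited without normalization and need not be whole. TPM values were scaled by the authors to effective length and to 1 sum per library. The deposited files also give the percent of a gene's TPM in each transcript and the effective length. Groups were taken from the labels, and all samples of a group were treated as replicates.

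After rounding the expected counts, a gene was tested when 2 or more libraries held over 10 of them,  with edgeR 4.0.16 (TMM, quasi-likelihood test, Benjamini-Hochberg adjustment over all 17348 genes) in R 4.3.3, using the thresholds of the study or an FDR under 0.05. Each SE was computed as the absolute log2 fold change divided by the square root of the F statistic of this test. Shares were compared with exact permutation tests. Identity and copies were found with blastn 2.17.0 and a global alignment of coding sequences (GENCODE, GRCm38). Alternatives were DESeq2 1.42.0, its size factors, library totals, TMM without the members, filterByExpr, no filter, limma 3.58.1 on log2(TPM + 1) and log2(TPM + 0.1), counts not rounded, glmTreat against a log2 change of 1, a replicate block, copies added and leaving out each library; copies and protein-coding denominators were added after seeing the data. The fit was tested on simulated data. The same-numbered libraries did not deviate together (correlations 0.224, -0.116 and 0.052). Replicates differed by far more than sampling noise.

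The members and lists were chosen with earlier results of these data known. Named genes are paralog pairs, the RT-qPCR reference gene, X-linked members, the P stalk and 5S particle, the 5 largest changes past FDR 0.05 without overlap, the 3 highest in mean TPM, those nearest to the count threshold, transcript shifts of at least 10 points without overlap, ribosomal protein genes outside the rule, Eef1a1 and Eef1a2, of which some are not reported here. Wilson intervals and floors account for counting error alone, and the spread between replicate libraries limited most comparisons more than depth did. Plots were drawn with matplotlib 3.10.9.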

Additional observations from a re-analysis of the deposited data

How the results depend on the processing

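The median log2 fold change of the members (0.51) was between 0.37 and 0.65 under every alternative. No alternative called a member by the thresholds of the study. The number of members past an FDR of 0.05 (44) was between 8 and 78 when 1 library was left out, 32 and 33 with limma on log2(TPM + 1) and log2(TPM + 0.1), and 48 with DESeq2. With the replicate block it was 29, all among the 44, and the replicate numbers are not known to pair the libraries. Library totals alone gave 58. The share of all tested genes that rose at this FDR moved too, from 19.7% in the main fit. It was 9.87% to 25.9% when 1 library was left out, 8.92% and 9.36% with limma, and 20.8% with DESeq2. With the replicate block this share was 15.8%, and with library totals alone it was 22.3%. glmTreat against a log2 change of 1 called 0 members at this FDR and 0 at an unadjusted p under 0.05, and 1.88% of all tested genes higher. The ratio of the members' share of the library (1.48) was 1.19 for TPM over protein-coding rows and 1.36 to 1.62 when 1 library was left out. The difference in the Rpl3l share was -0.00433 points in TPM, -0.00672 in expected counts and between -0.00619 and -0.0032 when 1 library was left out. The number of transcripts with a shift of at least 10 points without overlap (2) was between 2 and 4 when 1 library was left out. The sign of Rps4l changed with filterByExpr (-0.01), limma (-0.04 with either pseudocount) and without NF-YA cKO replicate 1 (-0.04), NF-YA cKO replicate 2 (-0.00) or NF-YA fl/fl replicate 3 (-0.10), and Rpl39l, at -0.41, lay between -0.76 and 0.13 when 1 library was left out (0.13 without NF-YA fl/fl replicate 1). Over 47 genes tried and the 17 alternatives other than glmTreat, 665 values kept their direction and side of the threshold, 106 fell short of it, 21 newly passed it and 7 changed sign. The cause of these changes was not tested. Genotype cannot be told apart from sex, and neither depth nor counting error limits the standard genes, whereas Rpl3l, Rpl10l and Rpl39l are limited by depth.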
